A study of Mus musculus with 8 samples.

Results

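The genes described here are the glucocorticoid receptors and a group of stress hormone targets in PV+ interneurons, the fast-spiking inhibitory cells of the cortex that contain parvalbumin. They were taken by gene symbol, though with earlier results of these data known. They are the receptor genes *Nr3c1* and *Nr3c2*, the receptor co-chaperone gene *Fkbp5*, and the target genes *Sgk1*, *Tsc22d3*, *Pdk4*, *Cdkn1a* and *Zbtb16*. All 8 were found among the 45706 genes of the deposited tables, and all 8 passed the filter on low counts that left 17495 genes. RNA-seq of mRNA bound to ribosomes compared 4 CNO samples with 4 vehicle samples, and a sample was a pool of 4 brains.

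Every mouse carried the alleles *PvalbFlp/+;Neurod6Cre/+* and an AAV with a flox-fdio cassette that joins HA-RPL10a to myc-hM3Dq through T2A, injected into S1 at postnatal day 1 and driven by the hSyn promoter. Flp, made where *Pvalb* is active, turns the construct on, and Cre, made in pyramidal cells, removes it. The construct tags the ribosomal protein RPL10A, so that ribosomes with their mRNA can be pulled down, and it makes hM3Dq, a designed receptor through which CNO excites the cell. Mice of postnatal day 42 to 70 received 5 injections over about 48 h, of CNO at 1 mg/kg or of vehicle, and the fifth was given on the morning of collection. Both groups were therefore handled and injected alike, with no uninjected mice and no CNO-treated mice without hM3Dq among these samples. What the injections themselves did to stress hormone levels cannot be told apart from the baseline of either group. Infection was sparse, so each sample stands for a subset of the PV+ interneurons of S1.

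Corticosterone, the main glucocorticoid of mice, enters cells and binds 2 related nuclear receptors, the glucocorticoid receptor GR encoded by *Nr3c1* and the mineralocorticoid receptor MR encoded by *Nr3c2*. MR binds corticosterone more tightly and is largely occupied at rest, whereas GR fills as hormone rises with stress or with the daily peak. Without hormone GR is held in the cytoplasm by HSP90 and its co-chaperones. FKBP51, the product of *Fkbp5*, lowers its affinity for hormone and is itself induced by GR, which closes a feedback loop. Hormone-bound GR moves to the nucleus, where pairs of receptors bind a palindromic DNA element, the glucocorticoid response element or GRE, and switch on genes such as *Tsc22d3*, *Sgk1*, *Pdk4* and *Zbtb16*.

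Promoter windows in RefSeq on GRCm38.p6, from 250 bases before to 50 after a listed start, were matched for 6 of the 8 genes and gave 14 windows. A perfect GRE palindrome, spelled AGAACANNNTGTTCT and identical on both strands, stood in 1 of these 14 windows, at *Sgk1*. The same letters were found in 3 of 32851 windows of all genes (0.00913%). A shorter core, GNACANNNTGTNC, which the palindrome contains, was found in 156 of those windows (0.475%), and a single arm of it, AGAACA, on either strand in 19.0%. Among the windows of the 8 genes this arm was present in 3 windows of *Sgk1* and 1 of *Tsc22d3*. The stretch around the *Sgk1* palindrome, chr10:21993641-21993775 on the plus strand, is shown because it is the GRE match among these windows, with the palindrome in capitals.
Sgk1: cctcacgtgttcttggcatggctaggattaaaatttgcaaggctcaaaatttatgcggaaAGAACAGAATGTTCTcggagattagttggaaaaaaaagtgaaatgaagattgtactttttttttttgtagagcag
The palindrome covered bases 21993701 to 21993715, 189 bases before the start site of its own window and 965 bases before the *Sgk1* start listed farthest downstream.

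*Cdkn1a* encodes the cell cycle inhibitor p21 and is known both as a GR target and as the textbook target of p53. Its window at chr17:29090870-29090978, on the plus strand, is shown with a pair of p53 core letters, ACATGTNNNNACATGT, in capitals. This pattern was chosen after the letters of the window had been read. It reads the same on both strands and was found in 4 of the 32851 windows (0.0122%).
Cdkn1a: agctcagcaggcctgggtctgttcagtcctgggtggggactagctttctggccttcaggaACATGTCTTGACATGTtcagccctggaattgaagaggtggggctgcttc
A match of letters is a description of these windows and no measure of receptor or p53 binding, which was not assayed here.

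Samples held 44064138 to 49413277 counts each, and 3 counts, taken as the floor, were worth 0.0607 to 0.0681 CPM (counts scaled to one library total). Such a floor reflects counting error alone, as copies made by PCR are not separate molecules. *Fos*, the activity-induced gene that serves as a check of stimulation, had a mean TPM (a level per transcript length, scaled to one total in every sample) of 61.2 ± 21.0 (SD, n = 4) with CNO and 17.0 ± 2.97 with vehicle, and its groups did not overlap. All 12 PV+ interneuron markers, including *Pvalb*, were detected in every sample. Markers of pyramidal cells, astrocytes, oligodendrocytes, microglia and blood vessels were also present in every sample, and none of them was at 0 in a sample. Vehicle replicate 1 stood apart with the lowest mean of the PV+ interneuron markers, 5.61 log2 CPM against 6.81 to 7.04 in the other vehicle samples. In such bulk material fewer cells of a type and less RNA per cell cannot be told apart.

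The first question was whether sustained activation of PV+ interneurons shifted the glucocorticoid system. A gene was called where the adjusted p was under 0.05, the fold change over 1.5 and the mean TPM over 1 (edgeR quasi-likelihood test, Benjamini-Hochberg adjustment over 17495 genes). None of the 8 genes was called, and neither was any other gene, a share of 0%. *Fos*, the check of stimulation, had a log2 fold change of 1.93 ± 0.213 (SE) and also missed the threshold. Its adjusted p of 0.052 (edgeR) was the smallest of all tested genes. At an unadjusted p under 0.05 there were 0 of the 8 genes against 716 of all tested genes (4.09%). The robust likelihood ratio test of edgeR called 12 genes and DESeq2 10, with 0 of the 8 among them. The groups overlapped for all 8 genes, whereas they did not overlap for 423 of all tested genes (2.42%). Of the 8 log2 fold changes, 5 lay above 0 and 3 below, with a median of 0.13 beside 0.0014 for all tested genes. The p-values measure the spread between pooled samples. The study alternated or randomized conditions within litters where it could, and which pools shared litters is not given in the sources used here.

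Intervals show how large a change these samples could have hidden. The 95% interval of the fold change in counts lay within 1.5-fold in both directions for 6 of the 8 genes and within 2-fold for all 8. No intervals were taken in TPM, where values can differ. On log2(TPM + 1) the change of *Pdk4* was −0.30. The 2 exceptions at 1.5-fold were *Tsc22d3*, with an upper bound of 1.57-fold, and *Fkbp5*, with 1.51-fold. The median standard error of the 8 genes was 0.12 on the log2 scale, against 0.16 for all tested genes.

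**Figure D1:**
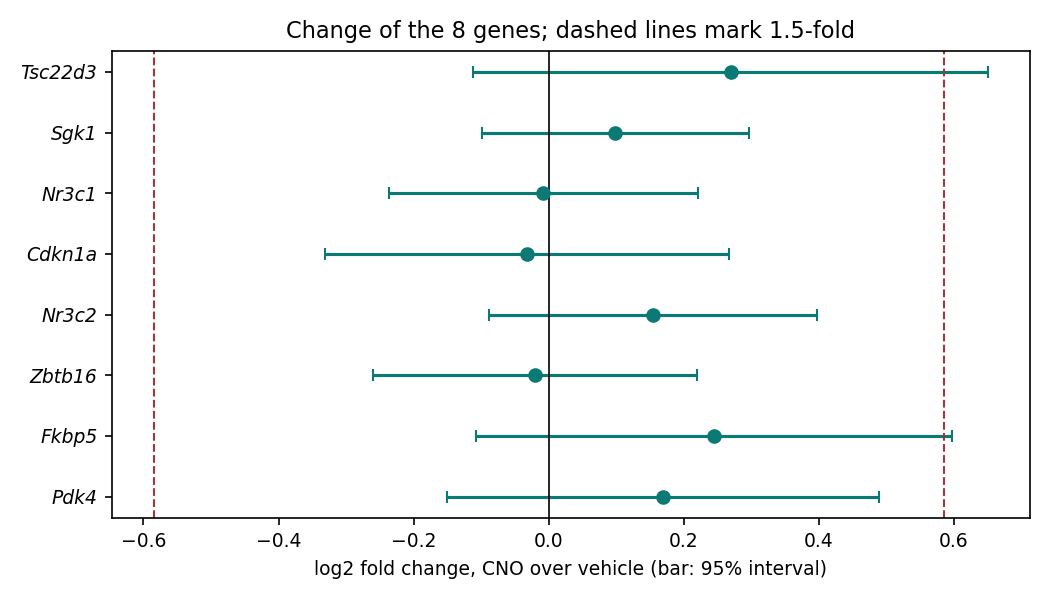
Log2 fold change of each of the 8 genes, CNO over vehicle, on the x axis, with genes on the y axis in order of level. Points are estimates from 4 samples a group, bars are 95% intervals and dashed lines mark 1.5-fold either way; all 8 bars cross 0 and those of *Tsc22d3* and *Fkbp5* pass the right-hand line.

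Per transcript length the 8 genes spanned a 61.6-fold range of mean TPM over the 8 samples. *Tsc22d3* was at the top with 201.6 ± 33.8 (SD, n = 8), above 95.7% of the tested genes. *Sgk1* followed with 82.4 ± 5.03 and *Nr3c1* with 64.2 ± 9.45, and the ranges of these 2 overlapped. The next 3 genes, *Cdkn1a* with 15.9 ± 1.86, *Nr3c2* with 13.7 ± 3.65 and *Zbtb16* with 13.5 ± 1.90, lay near the middle of the tested genes and their ranges overlapped as well. *Fkbp5* had 8.30 ± 1.33, overlapping *Zbtb16*, and *Pdk4* was at the bottom with 3.27 ± 1.39. Ranges over the 8 samples were separate between *Tsc22d3* and *Sgk1*, between *Nr3c1* and *Cdkn1a*, and between *Fkbp5* and *Pdk4*.

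**Figure D2:**
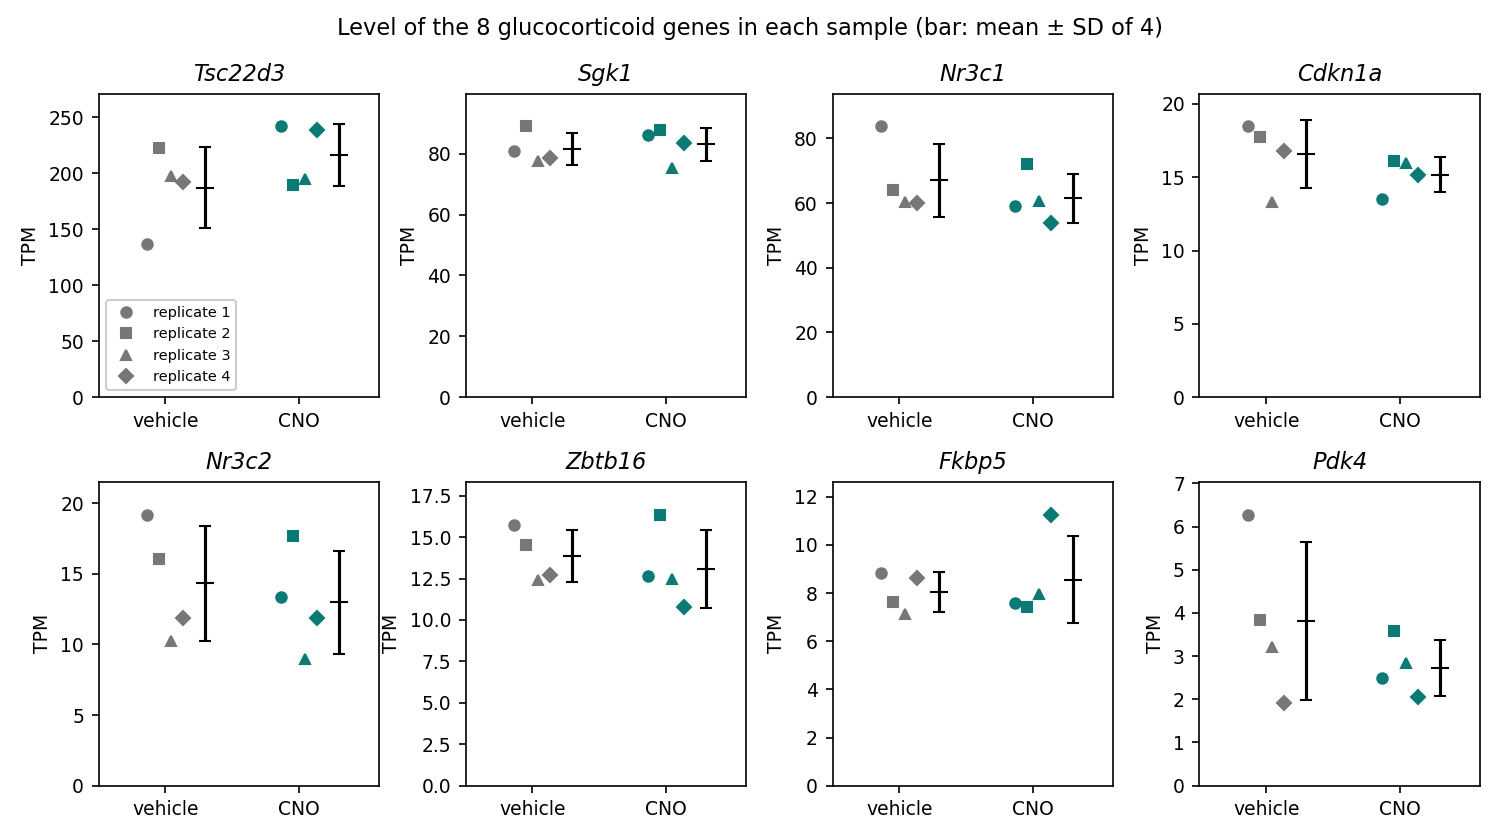
TPM (y axis, from 0) of the 8 genes in each sample, by group (x axis), with a marker shape for each replicate number and the mean ± SD of 4 samples beside the points. Vehicle and CNO points overlap in all 8 panels, vehicle replicate 1 is low for *Tsc22d3* and high for *Nr3c1*, and CNO replicate 4 is high for *Fkbp5*.

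*Nr3c1*, the GR gene, had TPM values of 59.1, 72.1, 60.7 and 54.0 in CNO replicates 1 to 4 and of 83.8, 64.0, 60.3 and 59.9 in vehicle replicates 1 to 4. Vehicle replicate 1 was the high sample and the other 7 samples mixed across groups. The log2 fold change was −0.0077 ± 0.104 (SE), with a 95% interval of 0.849- to 1.17-fold (edgeR, adjusted p = 0.989). Its sign was not stable, since it was 0.081 without vehicle replicate 1.

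*Nr3c2*, the MR gene (chr8:76899442-77245012 on GRCm38, plus strand), had 22.9, 22.4, 17.1 and 22.6 CPM with CNO and 20.1, 19.2, 17.9 and 19.3 CPM with vehicle. CNO replicates 1, 2 and 4 lay above every vehicle sample and CNO replicate 3 lay below every one. The log2 fold change in counts was 0.15 ± 0.110 (SE), 0.941- to 1.32-fold (edgeR, adjusted p = 0.817). Without CNO replicate 3 it was 0.25, with an unadjusted p of 0.0315 in the edgeR test and an adjusted p of 0.901. In TPM the direction was the other one, with means of 13.0 ± 3.65 for CNO and 14.3 ± 4.07 for vehicle (SD, n = 4).

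The balance of the receptor mRNAs can be read as *Nr3c1* TPM over *Nr3c2* TPM, a ratio added after the values had been seen. It was 4.42, 4.07, 6.78 and 4.53 in the CNO samples and 4.37, 3.99, 5.90 and 5.05 in the vehicle samples. In both groups replicate 3 had the highest ratio in TPM. The means of 4.95 ± 1.24 and 4.83 ± 0.839 (SD, n = 4) differed by less than the replicates did (two-sided exact permutation of log2 ratios, p = 0.857, with 0.0286 the smallest value possible). In CPM, which is not scaled by implied length, the ratio of counts was 4.61, 4.84, 6.05 and 4.28 with CNO and 6.16, 5.14, 5.31 and 5.16 with vehicle. Vehicle replicate 1 was then the highest, and the means of 4.94 ± 0.772 and 5.44 ± 0.485 (SD, n = 4) stood in the other order (exact permutation p = 0.286).

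*Fkbp5*, the feedback co-chaperone gene (chr17:28399094-28517527, minus strand), had 11.998, 10.966, 12.807 and 18.681 CPM with CNO and 10.689, 11.594, 11.217 and 12.450 CPM with vehicle. CNO replicate 4 was the one sample far above the rest. This gave a log2 fold change of 0.24 ± 0.160 (SE), 0.928- to 1.51-fold (edgeR, adjusted p = 0.817), and it was 0.046 without CNO replicate 4. Within replicates 1 and 2 the difference was 0.043 log2 CPM, and within replicates 3 and 4 it was 0.39.

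FKBP52, encoded by *Fkbp4*, competes with FKBP51 for the receptor complex and favours transport of GR to the nucleus. *Fkbp4* was far the more abundant, with a TPM of 174 ± 21.0 for CNO and 151 ± 35.7 for vehicle (SD, n = 4). *Fkbp4* over *Fkbp5* in TPM was 21.8, 21.0, 21.6 and 18.1 with CNO and 11.2, 21.8, 25.1 and 18.8 with vehicle, also a ratio added after the values had been seen. Vehicle replicate 1 had the lowest ratio, and the groups did not differ beyond the spread between replicates (exact permutation test, p = 0.829).

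*Tsc22d3* (chrX:140539528-140600659, minus strand) encodes GILZ, a leucine zipper protein that carries much of the anti-inflammatory action of glucocorticoids and is a direct GR target. Its TPM was 241.9, 189.5, 194.5 and 238.6 with CNO and 136.5, 222.7, 197.0 and 191.8 with vehicle. CNO replicates 1 and 4 were the highest samples and vehicle replicate 1 was the lowest, while the other 5 samples mixed. Its log2 fold change was 0.27 ± 0.173 (SE), 0.926- to 1.57-fold (edgeR, adjusted p = 0.817). Without vehicle replicate 1 it was 0.12, and with cell type markers as a covariate it was 0.029.

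*Sgk1* (chr10:21882184-21999903, plus strand) encodes a kinase that acts on ion channels and transporters and responds to both GR and MR. It varied little, with TPM values of 86.0, 87.7, 75.5 and 83.6 for CNO and 81.0, 89.1, 77.5 and 78.6 for vehicle. No sample stood apart in either group. The log2 fold change was 0.099 ± 0.0898 (SE), 0.934- to 1.23-fold (edgeR, adjusted p = 0.817). This was the smallest standard error of the 8.

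*Pdk4* (chr6:5483351-5496309, minus strand) encodes a mitochondrial kinase that inhibits pyruvate dehydrogenase and so spares glucose. In counts it had 3.31, 3.91, 3.41 and 3.34 CPM with CNO and 3.47, 3.10, 3.01 and 2.85 CPM with vehicle. Vehicle replicate 1 lay among the CNO samples, and the other 3 vehicle samples lay below all of them. Between groups the log2 fold change was 0.17 ± 0.145 (SE), 0.901- to 1.40-fold (edgeR, adjusted p = 0.817).

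*Pdk4* TPM pointed the other way, with 2.48, 3.58, 2.83 and 2.05 for CNO and 6.28, 3.83, 3.22 and 1.92 for vehicle. Vehicle replicate 1 was now the highest sample by far, and the group means were 2.74 ± 0.647 and 3.81 ± 1.83 (SD, n = 4). On log2(TPM + 1) the change was −0.30, against 0.17 in counts. The length that counts and TPM together imply for a gene, relative to its own geometric mean over the samples, was 0.557 in vehicle replicate 1 and 1.42 in CNO replicate 4 and vehicle replicate 4. This span of 2.55-fold was larger than that of 99.9% of 13534 genes with at least 50 counts in every sample, where the median was 1.06-fold. The annotation lists 3 *Pdk4* transcripts of 412 to 3484 nucleotides, among which the estimated counts were divided before they were summed.

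*Nr3c2* had a span of implied length of 1.63-fold, larger than that of 98.0% of those genes, and 8 listed transcripts of 270 to 5916 nucleotides. Its implied length was 1.09 and 0.873 in CNO replicates 1 and 2 and 0.746 and 0.801 in the same vehicle replicates, and lay between 1.10 and 1.22 in the 4 samples numbered 3 and 4. *Pdk4* and *Nr3c2* were the 2 genes whose mean was higher with CNO in CPM and lower in TPM. For these 2 TPM depends on how reads were divided among the gene's own transcripts of unequal length, and the gene count does not. The *Nr3c2* counts were not all whole, as with 800.39 in CNO replicate 3, so they can include reads divided with other genes. The edgeR fit applied no correction for implied length, and which unit lies nearer to the number of molecules was not tested. For *Tsc22d3*, *Sgk1* and *Zbtb16* the span was at most 1.03-fold.

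**Figure D3:**
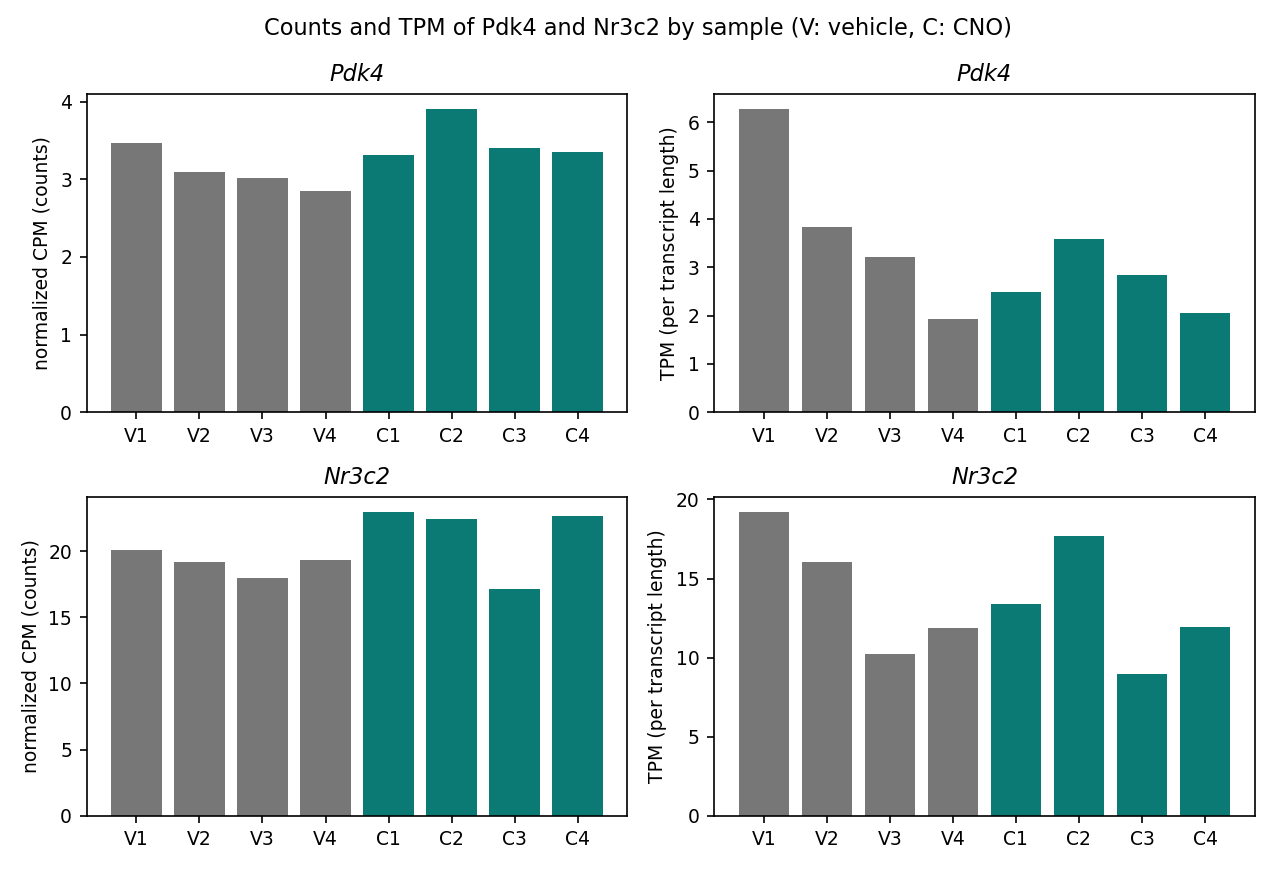
Normalized CPM (left, y axis) and TPM (right, y axis) of *Pdk4* (top) and *Nr3c2* (bottom), one bar per sample from 0, vehicle replicates V1 to V4 in grey and CNO replicates C1 to C4 in teal. *Pdk4* spans 1.37-fold in CPM and 3.27-fold in TPM, and V1 is the highest bar of both genes in TPM only.

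*Cdkn1a* (chr17:29090976-29100727, plus strand) had TPM values of 13.5, 16.1, 15.9 and 15.2 with CNO and 18.5, 17.8, 13.3 and 16.8 with vehicle. The CNO samples lay inside the range of the vehicle samples. Its log2 fold change was −0.032 ± 0.136 (SE), 0.795- to 1.20-fold (edgeR, adjusted p = 0.953). The direction differed between the replicate numbers, with a difference of −0.26 log2 CPM within replicates 1 and 2 and of 0.19 within replicates 3 and 4. Of the 31-nucleotide stretches of *Cdkn1a* 9.78% also occurred in other genes, against 0.13% to 2.90% for the other 7 genes. Its estimated counts were whole numbers in every sample, from 237 to 309, so no division of reads with other genes shows in them. Whether the shared stretches bore on its count was not tested. *Cdkn1a*, *Fkbp5* and *Nr3c2* each overlap annotated genes on the opposite strand, and the library kit is not stated to keep strand, so reads from such partners cannot be told apart.

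*Zbtb16* (chr9:48654297-48836222, minus strand) encodes PLZF, a transcriptional repressor whose mRNA GR induces in many cell types. It had TPM values of 12.7, 16.4, 12.5 and 10.8 with CNO and 15.7, 14.5, 12.4 and 12.7 with vehicle. CNO replicate 2 was the highest sample and CNO replicate 4 the lowest, so the vehicle samples fell between them. This gave a log2 fold change of −0.021 ± 0.109 (SE), 0.835- to 1.16-fold (edgeR, adjusted p = 0.962).

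The rest of the pathway was read from gene lists, starting with the machinery that holds and shuttles the receptor. All 16 receptor chaperone genes were tested, 0 passed the test, 0 had an unadjusted p under 0.05, and 15 of 16 had a log2 fold change above 0 with a median of 0.17. *Bag1*, a co-chaperone of HSP70 that binds GR, had 0.18, and *Ptges3*, which encodes the HSP90 co-chaperone p23, had 0.25. The summed TPM of the list was lowest in vehicle replicate 1, at 3816 in a vehicle range that reached 5857, against 5058 to 6417 with CNO. Without vehicle replicate 1 the median was 0.037 and 12 of 16 lay above 0. With the difference of PV+ interneuron and pyramidal cell markers as a covariate it was −0.051 and 2 of 16 lay above 0.

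Among 16 coregulators of steroid receptors, 0 passed the adjusted threshold, and 1 had an unadjusted p under 0.05, beside 2.65% of all tested genes in that direction. This was *Ncor1*, a corepressor that recruits histone deacetylases, with a log2 fold change of −0.28 ± 0.123 (SE; edgeR, unadjusted p = 0.0465, adjusted p = 0.817). At that threshold 0 of 16 were left with the marker covariate, the robust likelihood ratio test or replicate number as a block, and 1 with DESeq2. Of the genes that make, convert or move glucocorticoids, 6 of 8 were tested and 0 passed. *Hsd11b1*, whose enzyme regenerates active corticosterone inside cells, had TPM values of 4.22, 4.21, 3.55 and 2.60 with CNO and 7.23, 5.53, 5.10 and 5.14 with vehicle. Every CNO sample lay below every vehicle sample, as in 1.63% of all tested genes, and the log2 fold change was −0.58 ± 0.197 (SE; edgeR, unadjusted p = 0.0138, adjusted p = 0.817). With the marker covariate 0 of the 6 tested genes had an unadjusted p under 0.05, against 1 with the robust likelihood ratio test and 1 with DESeq2. *Hsd11b2* and *Serpina6* were too low to be tested, and of 6 other steroid receptors tested 0 had an unadjusted p under 0.05.

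A wider list of 28 genes known to be induced by glucocorticoids was read in the same way, and 27 of them were tested. None of the 27 passed the adjusted threshold, and 7 had an unadjusted p under 0.05 with higher values in CNO samples and 0 with lower ones, beside 1.44% of all tested genes in the upper direction. The groups did not overlap on the log2 CPM scale for 4 of the 27, all higher, beside 0.789% of all tested genes. The list was chosen with earlier results of these data known, so these counts describe it and are no test against those shares. The median log2 fold change of the list was 0.043, with 15 values above 0 and 12 below. Several members of the list are also known as genes induced by neuronal activity, such as *Dusp1*, *Per1*, *Gadd45g* and *Rasd1*, and whether hormone or activity bore on their values was not tested. The number at an unadjusted p under 0.05 was 4 without CNO replicate 2, without CNO replicate 4 or without vehicle replicate 1.

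*Dusp1* encodes a phosphatase that shuts off MAP kinases and is induced by both glucocorticoids and activity. Its TPM was 109, 126, 112 and 163 with CNO and 47.8, 61.3, 71.0 and 65.3 with vehicle, without overlap. The log2 fold change was 1.17 ± 0.184 (SE; edgeR, unadjusted p = 6.56e-05, adjusted p = 0.239). Its adjusted p was 2.62e-07 by the robust likelihood ratio test of edgeR and 1.03e-05 by DESeq2, and with single samples left out the smallest adjusted p of the whole list lay between 0.219 and 0.774.

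*Klf15*, a transcription factor gene that GR induces in muscle and brain, had TPM values of 30.6, 28.2, 24.5 and 32.4 with CNO and 23.5, 25.2, 23.4 and 24.9 with vehicle. In log2 CPM its groups did not overlap, and the log2 fold change was 0.33 ± 0.112 (SE; edgeR, unadjusted p = 0.0139, adjusted p = 0.817). *Rasd1*, named for its induction by dexamethasone and encoding a small GTPase, had 4.71, 6.20, 4.58 and 4.26 with CNO and 2.70, 4.31, 4.11 and 3.05 with vehicle, a log2 fold change of 0.53. *Mt1*, a metallothionein gene that binds zinc, had 0.51, *Per1*, a clock gene with a well known GRE, had 0.31 and *Gadd45g* had 0.29. *Lcn2*, which encodes an iron-carrier protein of inflammation, had 1.88 but spread widely, from 0.670 to 6.88 TPM with CNO and from 0.172 to 1.46 with vehicle. Its lowest value, 0.0671 CPM in vehicle replicate 1, lay at about the floor of that sample, 0.0680 CPM. *Errfi1*, an inhibitor of the EGF receptor, was the fourth gene without overlap in log2 CPM, at 0.17. In TPM the groups of *Klf15*, *Rasd1* and *Errfi1* did overlap, and only *Dusp1* of these 4 genes stayed without overlap. The other genes of the list lay between −0.20 and 0.50, among them *Klf9* at 0.043 and *Nfkbia* at 0.21.

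**Figure D4:**
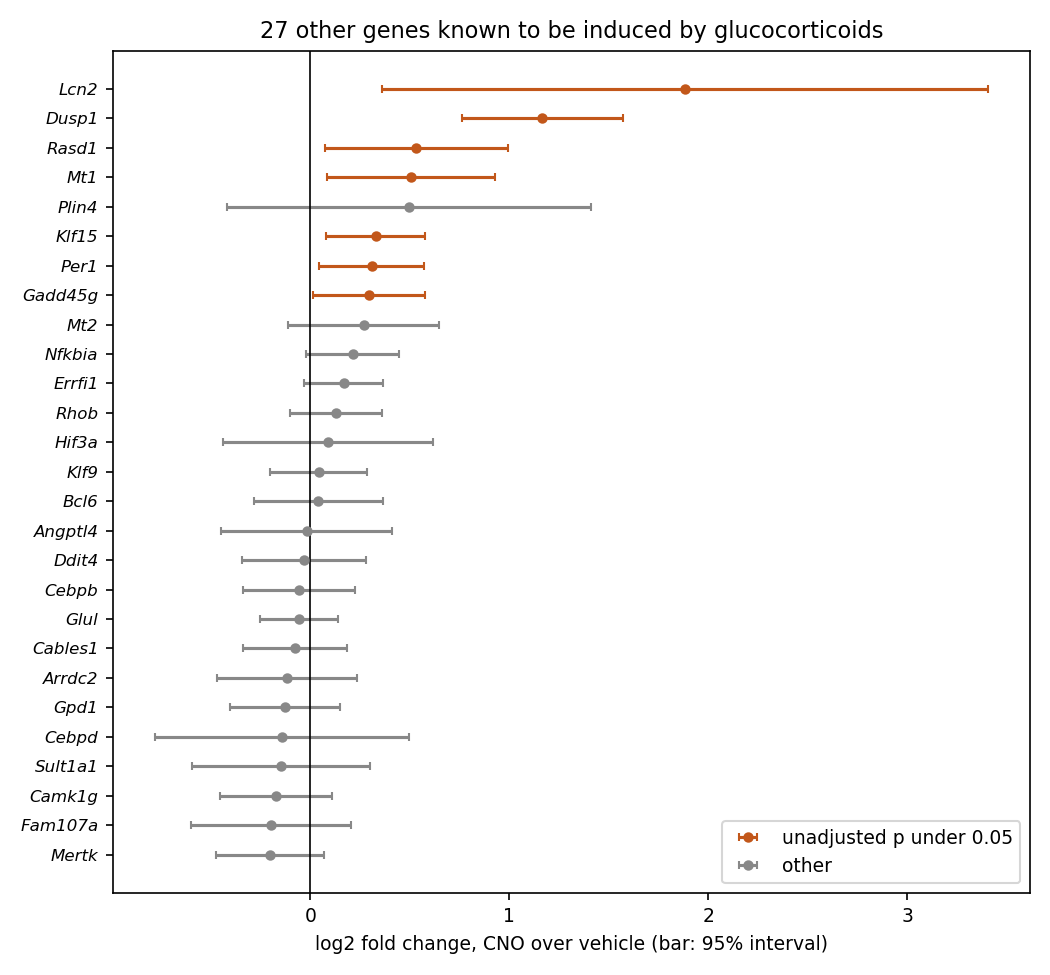
Log2 fold change, CNO over vehicle (x axis), of the 27 tested genes of the wider list, one gene per line in order of its value, with 95% intervals. The 7 orange genes have an unadjusted p under 0.05 and all lie to the right of 0; the 12 values to the left of 0 are all grey.

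Some of these targets answer to other regulators as well. Of 14 tested p53 targets besides *Cdkn1a*, 0 had an unadjusted p under 0.05, with a median log2 fold change of 0.055. Of 11 targets and members of the FOXO pathway, a regulator of *Pdk4*, 0 passed the adjusted threshold and 2 had an unadjusted p under 0.05, both higher with CNO, beside 1.44% of all tested genes. These were *Cited2*, at 0.46 ± 0.110 (SE; edgeR, unadjusted p = 0.00167, adjusted p = 0.817), and *Trib1*, at 0.44 ± 0.134 (SE; edgeR, unadjusted p = 0.00746, adjusted p = 0.817). *Foxo1* itself was lower in log2 CPM in each of the 4 CNO samples than in each vehicle sample, as in 1.63% of all tested genes, though by little (10.607 CPM in CNO replicate 2 against 10.614 in vehicle replicate 3) and not in TPM, with a log2 fold change of −0.26 ± 0.116 (SE; edgeR, unadjusted p = 0.0504, adjusted p = 0.817).

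Within their own protein families the target genes were not always the main form. *Pdk4* was the lowest of its family, at 2.74 TPM with CNO beside 98.5 for *Pdk2*, 42.3 for *Pdk3* and 35.3 for *Pdk1*. *Sgk1* was the highest, at 83.2 beside 8.63 for *Sgk3* and 1.08 for *Sgk2*, and *Sgk3* had a log2 fold change of −0.31 (edgeR, unadjusted p = 0.0468, adjusted p = 0.817). *Tsc22d3* at 216 stood below *Tsc22d1* at 374, whose log2 fold change was 0.40 ± 0.252 (SE). *Cdkn1a* at 15.2 stood above *Cdkn1c* at 5.61 and *Cdkn1b* at 1.39. Apart from *Sgk3*, 0 of these relatives had an unadjusted p under 0.05.

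Genes that answer to the same hormone might go up and down together between pools, so all 28 pairs of the 8 genes were correlated over the 8 samples in log2 CPM. *Sgk1* and *Tsc22d3* had Pearson's r = 0.884 (exact permutation p = 0.00149, 0.0417 after adjustment over the 28 pairs) and Spearman's rho = 0.833 (exact permutation p = 0.0154, adjusted p = 0.321). Leaving out CNO replicates 1 and 4, the samples farthest from the median of *Sgk1*, gave r = 0.777, and subtracting group means gave 0.846. On log2(TPM + 1) the same pair had r = 0.357, so the relation rests on the scale used. Of 15172 genes with a mean TPM above 1, 2027 had r above 0.9 with *Tsc22d3* and 81 with *Sgk1*. A high r with *Tsc22d3* was thus common and is not particular to genes that answer to glucocorticoids. Of the other 27 pairs 0 had an adjusted p under 0.05 for r. Replicates 1 and 2 make up 4 samples, and so do replicates 3 and 4, too few for a correlation of its own.

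Mean levels of cell type markers moved with some of these genes between pools. *Tsc22d3* followed the mean of the 12 PV+ interneuron markers with r = 0.935 (exact permutation p = 0.00231, 0.0464 after adjustment over 48 relations) and rho = 0.857 (exact permutation p = 0.0107, adjusted p = 0.123). Without CNO replicate 4 and vehicle replicate 1 this r was 0.648. Against the oligodendrocyte markers *Tsc22d3* had r = −0.852 (exact permutation p = 0.00290, adjusted p = 0.0464) and rho = −1.0 (exact permutation p = 4.96e-05, adjusted p = 0.00238, the smallest that the 40320 orders can give), and r = −0.958 without the same 2 samples. The 8 samples thus stood in exactly opposite order for *Tsc22d3* and for oligodendrocyte markers.

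*Sgk1* also went against the oligodendrocyte markers, with r = −0.871 (exact permutation p = 0.00201, adjusted p = 0.0464), rho = −0.833 (exact permutation p = 0.0154, adjusted p = 0.123) and −0.715 without CNO replicates 1 and 4. On log2(TPM + 1) that r was −0.17. *Zbtb16* followed the pyramidal cell markers with r = 0.843 (exact permutation p = 0.00913, adjusted p = 0.0800) and rho = 0.810 (exact permutation p = 0.0218, adjusted p = 0.131), which did not pass the adjustment, and r was 0.943 without CNO replicates 2 and 4. All values in a sample share its library and its scaling.

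**Figure D5:**
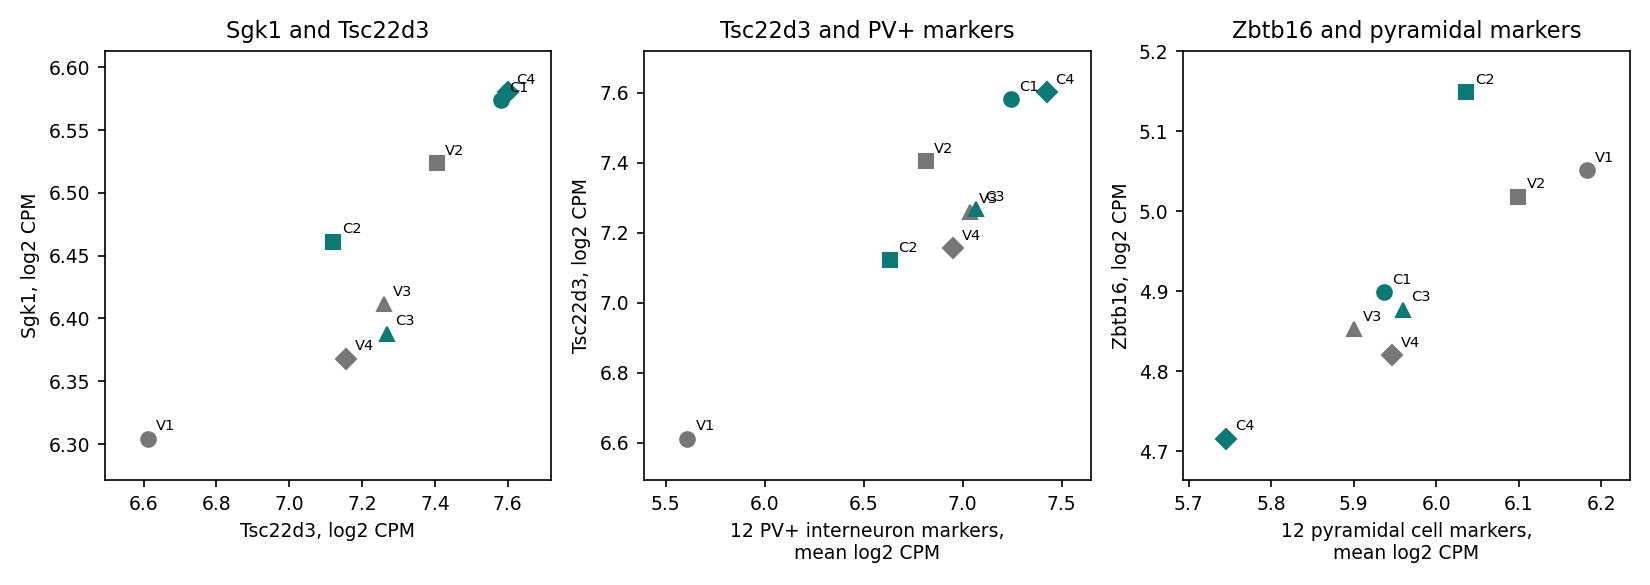
Log2 CPM of *Sgk1* against *Tsc22d3* (left), of *Tsc22d3* against the mean of 12 PV+ interneuron markers (middle) and of *Zbtb16* against the mean of 12 pyramidal cell markers (right), one point per sample, vehicle V1 to V4 in grey and CNO C1 to C4 in teal. V1 lies alone at the lower left of the first 2 panels, and C4 and V1 lie at opposite ends of all 3 horizontal axes.

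For none of the 6 marker lists did the difference between groups reach p under 0.05 in the exact permutation test. PV+ interneuron markers were 0.49 log2 CPM higher with CNO (exact permutation p = 0.229), with all 12 above 0 and a summed TPM of 2828 to 4273 against 1401 to 3411 with vehicle. Oligodendrocyte markers were lower by −0.20 (p = 0.229 by the exact permutation test), with all 12 below 0 and sums of 631 to 1116 against 867 to 1107. Microglia markers differed by −0.22 (exact permutation p = 0.200), with sums of 87.1 to 134 against 113 to 153. Pyramidal cell markers differed by −0.11 (exact permutation p = 0.257), with sums of 1485 to 2040 against 1673 to 2366, astrocyte markers by −0.078 (exact permutation p = 0.257) and blood vessel markers by 0.15 (exact permutation p = 0.714). The difference of the PV+ interneuron markers was 0.159 without vehicle replicate 1, that of the oligodendrocyte markers −0.12 without CNO replicate 4, and that of the blood vessel markers 0.479 without CNO replicate 1 and −0.056 without CNO replicate 3. With the difference of PV+ interneuron and pyramidal cell markers as a covariate, the log2 fold change of *Tsc22d3* was 0.029 in place of 0.27, that of *Fkbp5* 0.091 in place of 0.24 and that of *Sgk1* 0.049 in place of 0.099. The same fit gave 0.12 for *Nr3c1* and 0.088 for *Zbtb16*, both above 0, and 0.18 for *Nr3c2*, 0.27 for *Pdk4* and −0.0059 for *Cdkn1a*. The median of the FOXO list was then 0.011. Of the wider list 4 of 27 genes had an unadjusted p under 0.05 with higher values and 1 with lower ones. In this fit 1.26% of all tested genes had such a p with higher values. Vehicle replicate 1 had the lowest value of this covariate, −0.573 against 0.596 to 1.68 in the other 7 samples.

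Of 15172 genes with a mean TPM above 1, those most like each of the 8 genes were found by Pearson's r in log2 CPM over the 8 samples, given as a description. *Tsc22d3* was most like *Rnf208* at 0.996 and *Sdr39u1* at 0.995, and 2027 genes were above 0.9. *Sgk1* was most like *Coq10b* at 0.982, *Zbtb16* like *Hars2* at 0.972, *Nr3c1* like *Snx11* at 0.974, and between 81 and 120 genes were above 0.9 for each of these 3. *Fkbp5* was most like *Sik1*, a kinase gene induced by activity and cyclic AMP, at 0.959, with 27 genes above 0.9. *Pdk4* was most like *Morn1* at 0.977 and *Cdkn1a* like *Prss41* at 0.952, with 6 and 2 genes above 0.9. *Nr3c2* had 0 genes above 0.9, its nearest being *Gm37768* at 0.898. None of the 8 genes had another of the 8 among its 2 nearest.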

How the data were processed

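Reads were trimmed (Trim Galore), aligned to GRCm38, also named mm10 (STAR), and turned into gene counts (Salmon, tximport) by the authors. The deposited files hold expected counts, neither normalized nor filtered, and TPM, which the authors derived from counts and transcript lengths. Counts were rounded for edgeR 4.0.16 (R 4.3.3). The filter dropped any gene that had fewer than 10 counts in at least 4 samples. TMM normalization, the quasi-likelihood test and Benjamini-Hochberg adjustment followed, with 95% intervals from the fitted models. Log2 CPM used a prior count of 2. For single values a two-sided exact permutation test ran over 70 assignments. Alternatives included the robust likelihood ratio test, DESeq2 1.42.0, limma 3.58.1 on log2 TPM with 1 or 0.1 added, other scalings and filters, covariates, and leaving out samples. Gene overlap and shared 31-nucleotide stretches came from GENCODE mouse release 21, which holds 45143 of the 45706 identifiers. Promoter windows came from RefSeq. Plots were drawn with Python and matplotlib.

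The 8 genes and all lists were chosen with earlier results of these data known. Named besides the 8 were, in each list, the 3 genes with the smallest unadjusted p and any without overlap between groups, all family relatives, *Fos* and *Pvalb*, and the 2 nearest genes. Other genes of the wider induced list, and both ratios, were added after their values were seen. The scripts were tested on simulated data.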

Additional observations from a re-analysis of the deposited data

Results flagged for a closer look

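In 44 groups of 4 samples, the highest or lowest sample was compared with the spread of the others, and 5 stood apart, where chance gives about 1 in 20 or 2.2. *Nr3c1* was high in vehicle replicate 1, at 6.95 log2 CPM and 83.8 TPM. *Nr3c2* was low in CNO replicate 3, at 4.10 log2 CPM. *Fkbp5* was high in CNO replicate 4, at 11.3 TPM. The mean of the PV+ interneuron markers was low in vehicle replicate 1, at 5.61 log2 CPM.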

How the results depend on the processing

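None of the 8 genes was called under any of the 19 alternatives, while the number of genes called over all genes was 12 with the robust likelihood ratio test, 10 with DESeq2, 4 without a filter, 1 with at least 10 counts in every sample, 3 with replicates 1 and 2 against 3 and 4 as a block, and 0 to 2 with single samples left out. The number of the 8 genes with an unadjusted p under 0.05 was 0 to 1 with single samples left out. Signs turned for *Nr3c1* (0.0082 with the robust test, 0.12 with the marker covariate, −0.050 to 0.081 leaving out samples), *Nr3c2* (−0.13 and −0.14 on log2 TPM with 1 and 0.1 added), *Pdk4* (−0.30 and −0.37), *Zbtb16* (0.088 with the marker covariate, −0.11 to 0.034 leaving out samples) and *Cdkn1a* (−0.099 to 0.025 leaving out samples). *Fkbp5*, *Sgk1* and *Tsc22d3* stayed above 0 in all 19, but *Tsc22d3* was 0.029 with the marker covariate against 0.27, and *Fkbp5* 0.091 with it and 0.046 without CNO replicate 4 against 0.24. CNO minus vehicle in *Nr3c1* over *Nr3c2* was 0.124 in TPM and −0.498 in CPM, a unit added after seeing the data. Of the 27 induced genes, 4 to 7 had an unadjusted p under 0.05 with higher values when samples were left out. The number was 4 with library size only, on either log2 TPM scale or with the marker covariate. This count was repeated after its first value was seen. The share of all tested genes in that direction was 4.33% without CNO replicate 2 and 0.737% with library size only. On log2 TPM with 1 and 0.1 added that share was 1.06% and 1.02%, and with the marker covariate 1.26%. On log2(TPM + 1), r was 0.357 for *Sgk1* with *Tsc22d3* and −0.47 for *Fkbp5* with *Zbtb16*. For *Nr3c1* with *Tsc22d3* r was −0.763 over all samples, 0.170 without the 2 farthest and −0.22 without vehicle replicate 1. Deviations of same-numbered samples correlated at 0.026, −0.030, 0.16 and 0.24, and those of differently numbered samples at −0.403 to 0.431. Whether same-numbered pools shared a litter or a batch cannot be told from these values. With a replicate block 0 genes and 0 of the 8 were called. The causes of these shifts were not tested. With 4 pools a group, changes of the 8 genes smaller than their intervals were not detectable.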
